A study of Mus musculus with 2 samples.

Results

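The 8 mouse genes described here are Srebf2 and Insig1, which set the activity of the sterol response, and Hmgcs1, Idi1, Fdps, Sqle, Lss and Cyp51, which encode enzymes of cholesterol synthesis. They were taken by name, as every probe whose gene name in the scanner files was one of the 8, which gave 20 of 41084 usable probes and 8 of 19697 named genes. The tested cells were NIH3T3, an established mouse embryonic fibroblast line, stably carrying the plasmid pcDNA3.1-MARVELD1, and the controls were NIH3T3 carrying pcDNA3.1 without insert. The MARVEL domain after which MARVELD1 is named is a bundle of membrane-spanning helices. Both lines were grown in medium with fetal bovine serum, which supplies lipoprotein cholesterol. Per the labels, stable lines were selected with G418, and whether each was 1 clone or a pool is not stated. Total RNA of each line was hybridised to 1 single-colour Agilent whole-genome array, so the study has 2 arrays and 1 array per group, and the question was how MARVELD1 influences the expression profile.

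Cholesterol is built from acetyl-CoA through mevalonate, isoprenoid diphosphates, squalene and lanosterol. The pathway is switched on at the level of transcription by SREBP2, the product of Srebf2. SREBP2 is made as a membrane protein of the endoplasmic reticulum and is held there by Scap and the Insig proteins while sterols are plentiful. When sterols run low, it moves to the Golgi, where proteases release its transcription factor domain. That domain activates the genes of nearly all enzymes of the pathway and Insig1 itself, which closes a feedback loop. Fibroblasts in culture both make cholesterol and take it up from serum.

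Values are the processed fluorescence intensities of the scanner files, in arbitrary units, and differences are log2 values of MARVELD1 minus empty vector after each array was scaled to its 75th percentile. With no replicates there is no test and no p-value between the groups, and 2-fold is used as a limit of size. Each of the 20 probes was printed as 1 spot. The only error that can be given is technical, from 175 other probes printed repeatedly. The difference of 2 single spots had an SD of 0.17 for probes over 2000 in intensity, 0.29 between 200 and 2000, and 0.60 under 200. Of the spots on the MARVELD1 array 69.0% were well above background, and on the empty vector array 68.7%. The median difference of all 16531 detected genes was 0.19 at this scaling, so a typical gene sits near 0.19 rather than 0. That level varied with intensity. Loess, a scaling that follows intensity, took the bright Sqle probe from 0.35 to 0.04. It took the dimmer Insig1 probe A_52_P393392 only from 0.04 to -0.01. Marveld1 itself read 6292.8 on the MARVELD1 array and 8724.7 on the empty vector array by its brighter probe, and 126.4 and 184.4 by the other. Whether these probes read the plasmid's insert is not known, so every direction rests on the label, and “with MARVELD1” means the array so labelled. All 10 fibroblast markers examined were detected, with summed intensities of 585782 with MARVELD1 and 751599 with empty vector. Vim and S100a4 gave 0.21 and 0.25, and all the others lay below 0. Past 2-fold lower were Pdgfrb at -2.10, Col3a1 at -1.56 and Fn1 at -1.12. Markers of other cell types were detected in part: 6 of 6 of macrophages, 4 of 4 of steroidogenic cells, 3 of 5 of hepatocytes, 3 of 5 of adipocytes and 4 of 6 of epithelia. Summed intensities were 1459.2 with MARVELD1 and 1572.3 with empty vector for macrophages, 678.9 and 642.6 for steroidogenic cells and 870.1 and 687.4 for hepatocytes. The higher hepatocyte sum was that of Tat (508.1 with MARVELD1, 248.4 with empty vector), while Alb and Cyp7a1 gave -0.04 and -0.19. The adipocyte sum was 1882.7 with MARVELD1 and 6595.5 with empty vector, and the difference was that of Fabp4 (1504.9 with MARVELD1, 6234.1 with empty vector), while Plin1 and Cidec gave 0.14 and 0.25. The epithelial sum was 1109.9 with MARVELD1 and 3793.1 with empty vector through Krt14 (212.4 with MARVELD1, 3226.6 with empty vector). The other detected epithelial markers did not go that way. Krt8 gave 0.08 and Krt5 was past 2-fold higher, at 1.02. Krt18 read 78.7 with MARVELD1 and 19.4, not well above background, with empty vector. Epcam, Cdh1, Adipoq, Lep, Ttr and Apoa1 were not detected, and the part of these markers in the results was not tested. In a cell population, fewer cells of a kind and less RNA per cell cannot be told apart.

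Because the findings on Insig1, Idi1 and Cyp51 depend on which part of the transcript a probe reads, the sequences of their 7 probes are shown, as given in the array files with mm9 positions. A probe of 60 bases is given whole where it was taken as clearly reading the protein-coding part. The others are given by their first 30 bases, and whether they read coding sequence was not determined.
Insig1 A_51_P290207 (chromosome 5, 28404246 to 28404305, plus strand, first 30 bases): acagcatagaacacaacacgtgggacctaa
Insig1 A_52_P393392 (chromosome 5, 28401146 to 28401618, plus strand): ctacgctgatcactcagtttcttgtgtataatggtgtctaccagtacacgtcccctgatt
Idi1 A_51_P329711 (chromosome 2, 53553575 to 53553634, minus strand, first 30 bases): aggcatatattgatactgtgttttgattga
Idi1 A_52_P441634 (chromosome 2, 53555566 to 53555625, minus strand, first 30 bases): gatgctaaaattacctttccaggttgtttc
Cyp51 A_52_P164161 (chromosome 5, 4081471 to 4081530, minus strand, first 30 bases): aggttccttttagtattatctttggttatt
Cyp51 A_52_P636752 (chromosome 5, 4083236 to 4083295, minus strand): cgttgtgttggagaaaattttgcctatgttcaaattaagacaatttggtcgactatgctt
Cyp51 A_51_P485791 (chromosome 5, 4092033 to 4092439, minus strand): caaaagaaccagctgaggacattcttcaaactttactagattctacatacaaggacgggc
Probe A_52_P393392 is 60 bases long but covers 473 bases of the genome, so it crosses an intron and reads spliced RNA. The same holds for A_51_P485791, which covers 407 bases. The files place both Idi1 probes on chromosome 2, whereas the RefSeq gene table places Idi1 on chromosome 13. How much of their signal comes from another copy of the sequence was not tested, and the values of Idi1 are uncertain for that reason.

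Most of the 8 genes differed little between the lines. By the brightest probe of each gene, 1 of 8, Insig1, was at least 2-fold lower with MARVELD1 and 0 were at least 2-fold higher. That Insig1 probe is the brighter through the empty vector array. On the MARVELD1 array it read 163.6 and the gene's other probe 389.6, and the other probe gave a difference of 0.04. The count and the median of the 8 use the former probe. Among all detected genes 3.53% were at least 2-fold lower and 5.39% at least 2-fold higher, and the 1 in 8 is a single gene. The other 7 lay between 1.23-fold lower (Fdps) and 1.54-fold higher (Lss). The median of the 8 was -0.08, which is 0.26 below the median of all genes, and 5 of the 8 lay below that median. At the level of probes, 4 of the 20 were at least 2-fold lower and 0 higher, against 4.62% and 5.88% of 29535 detected probes. These 4 belong to Insig1, Idi1, Cyp51 and Hmgcs1, and in the last 3 genes they are not the brightest probe.

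**Figure D1:**
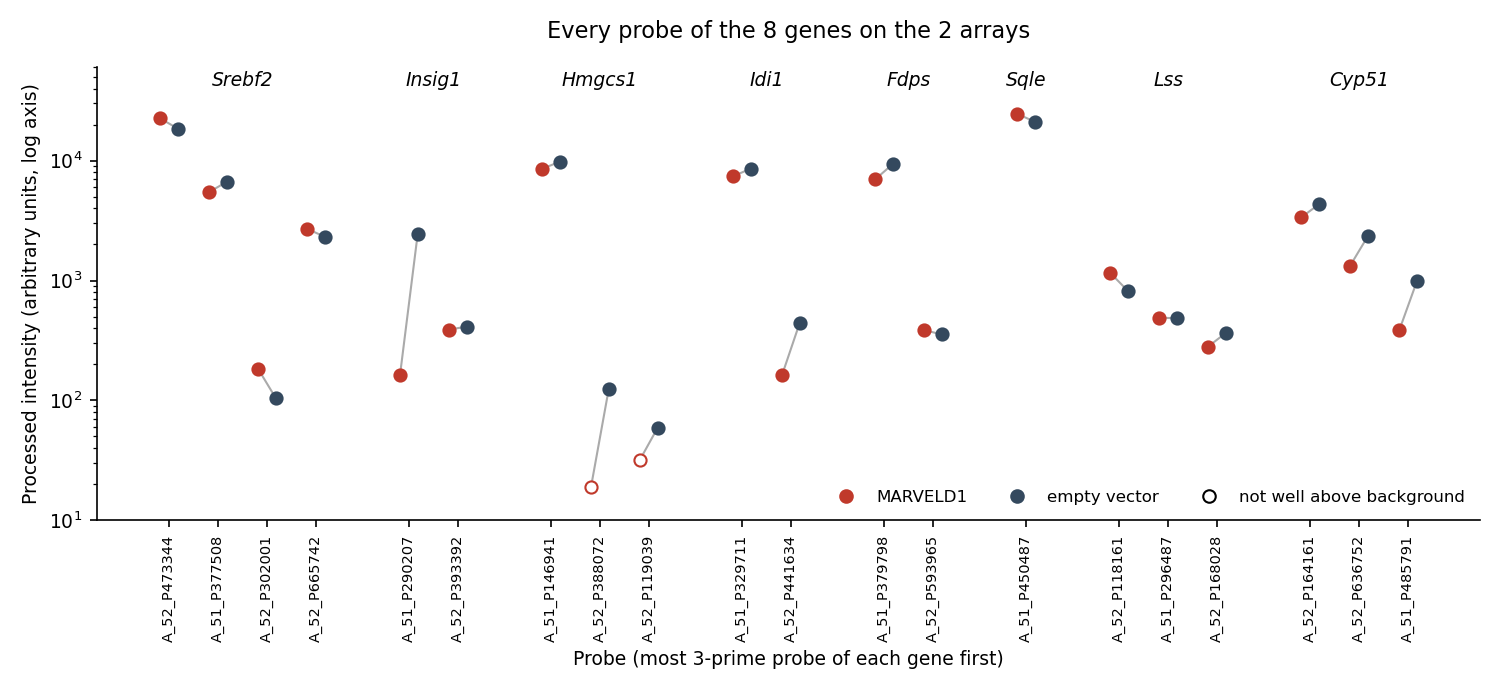
Processed intensity (log axis) of all 20 probes of the 8 genes, with the MARVELD1 array left of the empty vector array for each probe and 1 spot per point. Open circles mark spots not well above background. The first Insig1 probe reads 163.6 with MARVELD1 and 2437.6 with empty vector, while the brightest probes of the other genes sit nearly level.

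Srebf2, the gene of the transcription factor, was bright on both arrays and had 4 probes, all well above background. Its brightest probe, A_52_P473344, read 22570.5 with MARVELD1 and 18543.8 with empty vector, a difference of 0.41 or 1.33-fold higher. A probe 930 bases towards the 5′ end, A_51_P377508, read 5466.1 and 6656.3, a difference of -0.16. The probes therefore differed over a short stretch near the 3′ end of the gene. The gap between their values exceeds 0.17, the spot SD of a single difference at that intensity, though it carries the spot error of both. The value of -0.16 alone lies within that SD. The most 5′ probe, A_52_P665742, 31708 bases away, read 2707.2 with MARVELD1 and 2320.4 with empty vector, a difference of 0.35. The remaining probe, A_52_P302001, was dim, at 184.0 and 105.0, and its difference of 0.94 is to be set beside a spot SD of 0.60. None of the 4 probes reached 2-fold.

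Insig1, whose product retains the Scap and SREBP complex in the endoplasmic reticulum, gave the largest difference of the group and its sharpest disagreement. Probe A_51_P290207, the more 3′ of its 2 probes, read 163.6 with MARVELD1 and 2437.6 with empty vector, a difference of -3.77 or 13.6-fold lower. Probe A_52_P393392, 2687 bases towards the 5′ end, read 389.6 with MARVELD1 and 412.7 with empty vector, a difference of 0.04. Both spots were well above background on both arrays, and the spot SD at these intensities was 0.29. The distance between the 2 differences, 3.81, was matched or exceeded in 7 of 5472 genes with at least 2 probes measured on both arrays, Insig1 included (0.128%). Over 6 ways of processing the coding probe stayed between -0.07 and 0.11 and the 3′ probe between -3.88 and -3.33. The signal was thus much lower at 1 site of the Insig1 transcript and nearly level at the other, and a single value for the gene cannot be given.

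The first 3 of the enzymes make the isoprenoid precursors. Hmgcs1, the cytosolic synthase of HMG-CoA, read 8556.9 with MARVELD1 and 9795.1 with empty vector by its brightest probe, A_51_P146941, a difference of -0.07. Its probe A_52_P388072, 2860 bases towards the 5′ end, was not well above background on the MARVELD1 array, at 19.1, and read 123.8 with empty vector, which makes it at least 3.15-fold lower. Such a bound sets the brighter array against the lowest intensity measured well above background on the other, 36.0 with MARVELD1 and 36.5 with empty vector, or against the probe's own value there where that is higher, as for Mbtps2 and Abcg1. The remaining probe, A_52_P119039, lies 200540 bases from the brightest and is annotated to a complementary DNA only similar to the synthase. It read 32.1, not well above background, with MARVELD1 and 59.2 with empty vector, at least 1.51-fold lower. The bright signal of Hmgcs1 was thus nearly level at this scaling, and gave -0.35 after loess. The lowest values came from probes close to background.

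Idi1, the isomerase that turns isopentenyl into dimethylallyl diphosphate, showed the same split between probes. A_51_P329711 read 7416.7 with MARVELD1 and 8581.3 with empty vector, a difference of -0.08. A_52_P441634, 1991 bases towards the 5′ end, read 163.2 with MARVELD1 and 443.7 with empty vector, 2.49-fold lower, with a difference of -1.32 against a spot SD of 0.29. Fdps, which makes farnesyl diphosphate, the branch point to sterols, ubiquinone and protein prenylation, went the other way. Its bright spliced probe, A_51_P379798, read 6980.5 with MARVELD1 and 9382.1 with empty vector, a difference of -0.30. Its dimmer probe, A_52_P593965, 4214 bases towards the 5′ end, read 385.9 and 355.0, a difference of 0.25, which is within the spot SD of 0.29.

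The sterol-forming enzymes follow. Sqle, squalene epoxidase, the first oxygen-requiring and a rate-limiting step, has 1 probe, which read 24600.0 with MARVELD1 and 21121.6 with empty vector, a difference of 0.35. Lss, which closes squalene epoxide to lanosterol, had 3 probes. From the 3′ end, A_52_P118161 read 1157.7 with MARVELD1 and 818.9 with empty vector, a difference of 0.63. A_51_P296487 read 489.2 and 485.4, a difference of 0.14, and A_52_P168028 read 281.6 and 365.9, a difference of -0.25. The value of Lss thus fell along the gene, over 6104 bases, though 0.14 and -0.25 each lie within the spot SD of 0.29.

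Cyp51, the lanosterol demethylase, a cytochrome P450 enzyme, had 3 probes, all lower with MARVELD1. A_52_P164161, at the 3′ end, read 3371.8 with MARVELD1 and 4323.6 with empty vector, a difference of -0.23. A_52_P636752, 1765 bases further towards the 5′ end, read 1334.8 and 2350.8, a difference of -0.69. A_51_P485791, 10562 bases from the 3′ probe, read 384.9 and 986.9, a difference of -1.23 or 2.35-fold lower. Each step exceeds the spot SD of a single difference at its intensity (0.17 or 0.29). A step carries the spot error of both its differences, however, which is larger than that SD. Of the 6 genes with at least 2 probes measured on both arrays, Cyp51 and Idi1 had every probe lower with MARVELD1. For Idi1 the brighter probe's -0.08 lay within the spot SD of 0.17. In the other 4 the probes differed in sign, although the coding probe of Insig1 lay too near 0 for its sign to be read. The values of opposite sign in Fdps (0.25), Lss (-0.25) and Srebf2 (-0.16) also lay within the spot SD of their intensity.

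**Figure D2:**
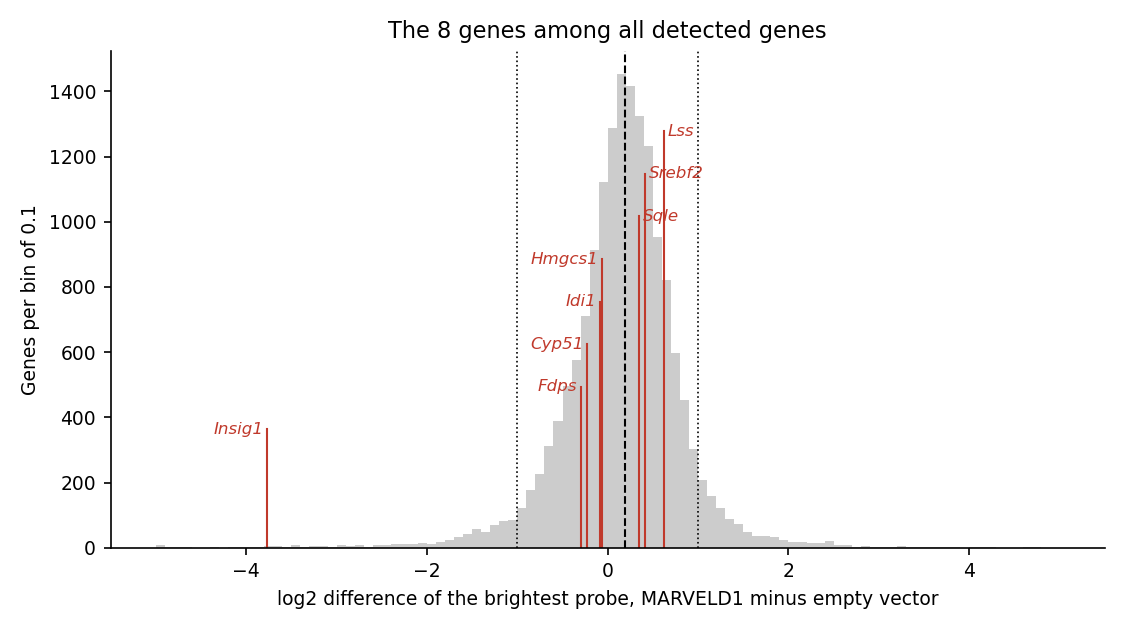
Number of detected genes per bin of 0.1 in the log2 difference of the brightest probe, MARVELD1 minus empty vector, with the 8 genes as red lines whose heights carry no value. Differences past 5 on either side, 16 genes, are drawn in the end bins, the dashed line is the median of all genes (0.19) and dotted lines mark 2-fold. Insig1 lies at -3.77 by this probe, while its other probe gave 0.04, and the other 7 genes lie inside the 2-fold limits.

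Differences between probes of a gene varied with their position, over the whole array as well as in this group, with no account taken of intensity. In the 4606 genes that had measured probes at least 500 bases apart, the difference of the most 5′ probe minus that of the most 3′ probe had a median of -0.28, with quartiles of -0.69 and 0.14, and 67.7% of the genes lay below 0. In the 8 genes, 6 could be compared and 4 lay below 0: Idi1 at -1.23, Lss at -0.88, Srebf2 at -0.06 and Cyp51, whose end probes gave -1.23 and -0.23. Of the other enzymes of the pathway 6 of 8 lay below 0. Fdps, at 0.55, and Insig1, at 3.81, lay above 0. Only 3 of the 4606 genes, Insig1 among them, had a value as high as that of Insig1. In each of the 6 compared genes the most 3′ probe was also the brightest, so position and intensity cannot be told apart there. The comparison was made at the main scaling only. Whether the general trend with position, or intensity, has a part in the lower 5′ values of Idi1, Lss and Cyp51 was not tested. In Insig1 the 3′ probe was the lower one.

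**Figure D3:**
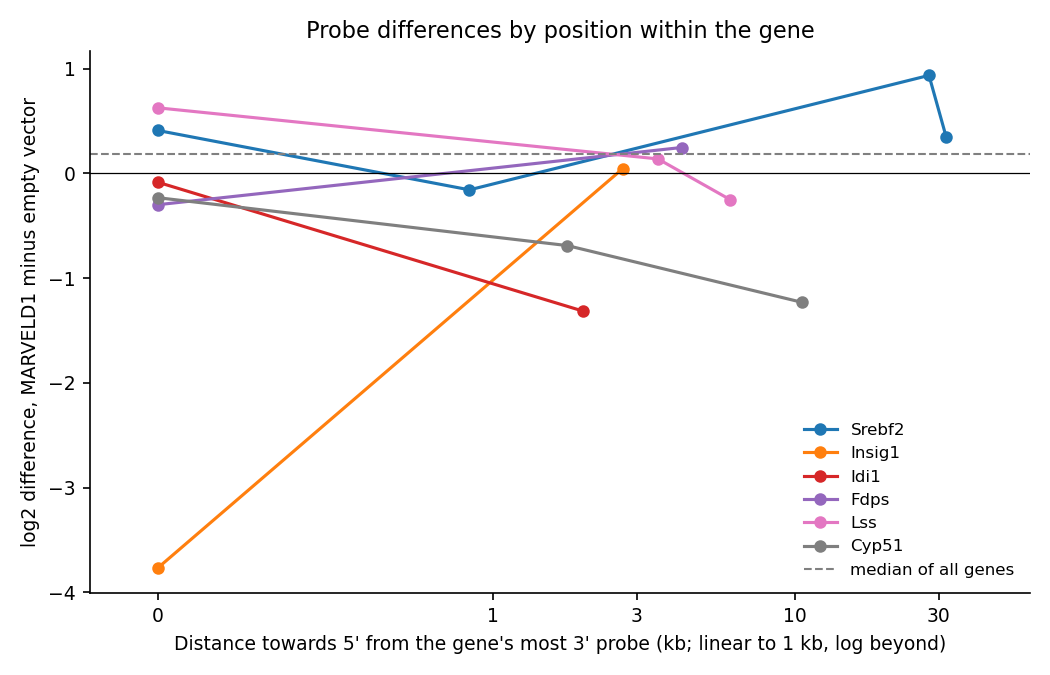
Log2 difference, MARVELD1 minus empty vector, of each probe measured on both arrays, against its distance in kb towards the 5′ end from the most 3′ probe of the same gene (axis linear to 1 kb, log beyond), for the 6 genes with at least 2 such probes. Lines join probes of 1 gene and the dashed line is the median of all genes (0.19). Cyp51, Idi1 and Lss run downwards and Insig1 runs from -3.77 up to 0.04.

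The other enzymes of cholesterol synthesis, a list of 18 genes, were all detected, and by the brightest probe 0 were at least 2-fold higher and 0 lower. Their median was 0.10, against 0.19 for all genes, and they ranged from -0.83 to 0.85. Mvk, the mevalonate kinase, was lowest, at 771.9 with MARVELD1 and 1493.8 with empty vector, and its other probe gave -1.14. Acat2, the acetoacetyl-CoA thiolase, read 327.5 with MARVELD1 and 580.5 with empty vector, a difference of -0.70. Fdft1, the squalene synthase, gave -0.53. Mvd, the mevalonate diphosphate decarboxylase, gave -0.31 and Hsd17b7, a sterol ketoreductase, -0.11.

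Ggps1, which makes geranylgeranyl diphosphate, read 704.0 with MARVELD1 and 769.6 with empty vector by its brightest probe, level after scaling, and gave 0.41 and -1.14 by its others. Sc5d, the lathosterol desaturase, was highest, at 9851.1 with MARVELD1 and 5961.3 with empty vector, with 0.73 from its other probe. Nsdhl, which acts in removal of the sterol methyl groups, gave 0.81. Its further measured probes gave 0.64 and -0.28. Erg28, a scaffold of the demethylation complex, gave 0.46, Lbr, a sterol reductase of the nuclear envelope, 0.30 and Dhcr7, the reductase that makes cholesterol from its dehydro precursor, 0.28, with -0.88 from its other probe. Pmvk, Idi2, Ebp, Msmo1 and Tm7sf2 lay between 0.09 and 0.31. Over all 24 enzymes, members included, 12 lay above 0 and 12 below, and the median was 0.05. Relative to the median of all genes it was lower in each of 10 settings, with differences between -0.28 and -0.10, and 14 of the 24 lay below that median at the main scaling.

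The genes that process SREBP and sense sterols, Srebf2 and Insig1 aside, all lay on the higher side by their brightest probe. All 10 were detected, 10 of 10 lay above the median of all genes, and their median was 0.40. Apart from Mbtps2, the values by the brightest probe lay between 0.23 and 0.72. Scap, the SREBP escort, gave 0.28, Srebf1 0.28 and Insig2, the relative of Insig1, 0.43. Mbtps1, the Golgi protease that makes the first cut, gave 0.36. Rnf139, a ubiquitin ligase of the endoplasmic reticulum, gave 0.72 and Rnf145, another such ligase, 0.51. Faf2, which takes part in extracting ubiquitinated proteins from that membrane, gave 0.23. Mbtps2, the protease of the next cut, was at least 2.38-fold higher, at 91.7 with MARVELD1 and 42.1, not well above background, with empty vector. Mbtps2 was the only 1 of the 10 past 2-fold at the main scaling, and its intensities fall where the spot SD is 0.60. With normexp 0 of the list were at least 2-fold higher, and by the most 3′ probe 2 were. Further probes were lower, at -0.88 for Insig2, -0.65 for Faf2 and -1.31 for 1 of 2 others of Mbtps1. With the mean of all probes of a gene 7 of the 10 lay above the all-gene median. With quantile normalization and after loess 8 of 10 did, and with normexp 9 of 10.

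Genes of sterol uptake and transport, 14 of 14 detected, had a median of 0.03, with 1 at least 2-fold lower and 0 higher. Relative to all genes the median of the list lay between -0.25 and -0.15 over 10 settings, with 5 of 14 above the all-gene median. Vldlr, the VLDL receptor, was 8.96-fold lower, at 96.7 with MARVELD1 and 946.6 with empty vector, and its other probe gave -0.71. Of the LXR targets and sterol efflux genes 8 of 11 were detected, with a median of -0.35. Abca1, the cholesterol exporter, was 2.23-fold lower, at 88.2 with MARVELD1 and 215.0 with empty vector. Abcg1, a related exporter, was at least 2.12-fold lower, and Apoe, the lipoprotein component, was 2.08-fold higher, at 2738.0 with MARVELD1 and 1435.5 with empty vector. All 3 are close to the limit of 2-fold, and the counts past it moved with the setting. With normexp 1 gene of the list was at least 2-fold higher and 0 were lower. With scaling to the array median, quantile normalization or loess 0 were higher and 2 lower. The authors' deposited values gave 0 higher and 1 lower. With the mean of all probes of a gene, or the most 3′ probe, 1 was higher and 2 were lower, as at the main scaling.

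**Figure D4:**
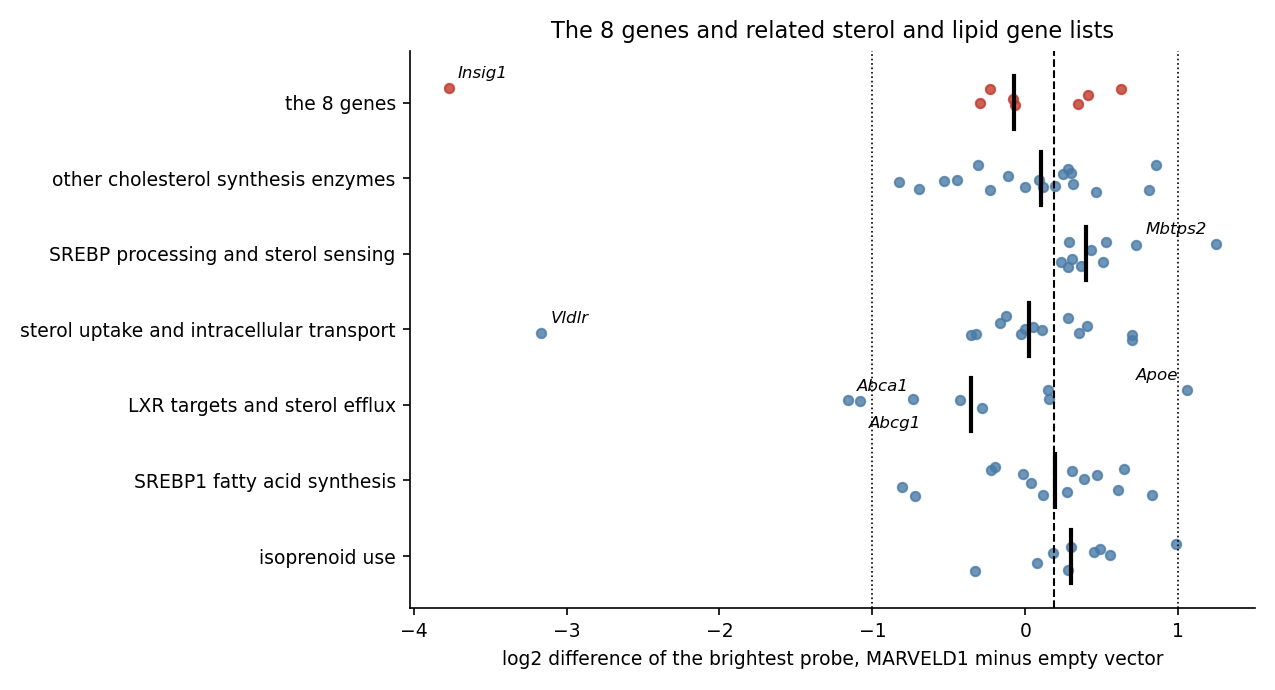
Log2 difference of the brightest probe, MARVELD1 minus empty vector, for each detected gene of the 8 and of 6 related lists, with the black bar at the median of each list, the dashed line at the median of all genes (0.19) and dotted lines at 2-fold. Points are spread vertically for sight only, and Mbtps2 and Abcg1 are bounds. Genes past 2-fold are named, and the 10 genes of SREBP processing and sterol sensing all lie right of the dashed line.

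Promoter sequences were at hand for 6 of the 8 genes, from RefSeq on GRCm38.p6, each covering 250 bases before and 50 after the start site. The sterol regulatory element was searched as TCACNCCAC on both strands, and 1 of the 6 held it, against 1.24% of all 32851 promoter windows. Other spellings of the element, and sequence outside the windows, were not searched. The match, in Hmgcs1, starts at position -137 from the start site and is shown with its neighbours, the element in capitals.
Hmgcs1 (chromosome 13, 119690204 to 119690233, plus strand): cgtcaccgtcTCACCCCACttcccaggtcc
The letters CCAAT, bound by NF-Y, a factor that acts with SREBP2, were found on either strand in 6 of 6 windows, against 37.4% of all windows. In Insig1 the match lies on the minus strand, at position -216, and is printed as read along the gene.
Insig1 (chromosome 5, 28071186 to 28071215, plus strand): ccctcctcccATTGGctccggcggcctcac
The letters CACGTG were found in 1 of 6, Insig1, against 7.15% of all windows. These matches describe the sequence only.

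The size of most differences depended in part on the processing, since the scalings also moved the median of all genes, between 0.04 and 0.19. The dim Hmgcs1 probes moved most: A_52_P388072, not well above background with MARVELD1, gave measured differences between -2.75 and -1.14, and A_52_P119039 between -0.94 and -0.34. Over 6 ways of scaling and background correction, Idi1 A_52_P441634 stayed between -1.43 and -1.07 and Cyp51 A_51_P485791 between -1.34 and -1.11. The brightest probes of Hmgcs1 and Idi1 stayed between -0.36 and -0.07, and that of Fdps between -0.59 and -0.30. Sqle stayed between 0.04 and 0.35 and the brightest probe of Srebf2 between 0.09 and 0.41, so both remained above 0, though close to it under some settings.

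**Figure D5:**
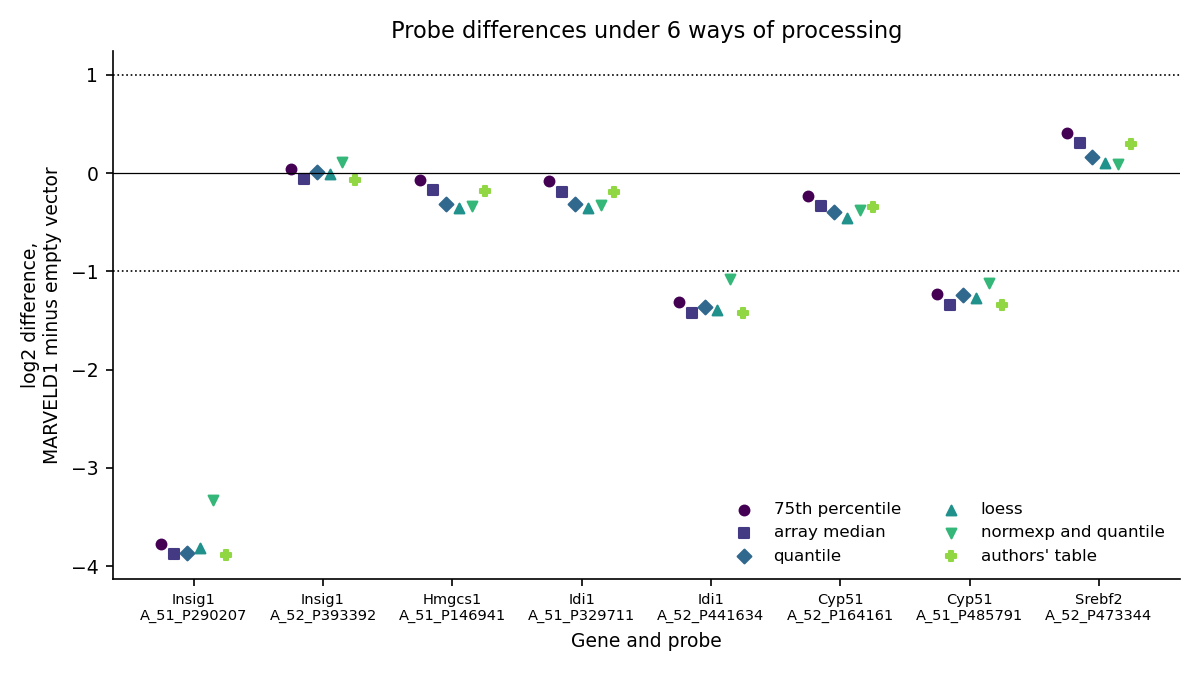
Log2 difference, MARVELD1 minus empty vector, of 8 probes under 6 ways of processing, with dotted lines at 2-fold. Each symbol is 1 way of processing. The first Insig1 probe lies between -3.88 and -3.33, and the second between -0.07 and 0.11.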

How the data were processed

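The authors deposited 1 scanner file per array, with spot intensities from Agilent Feature Extraction 9.5.3.1, per the file headers. Background was subtracted and spatial trends were removed in the processed intensity, array by array, per the file headers. Their normalized table equals it divided by 123.3 for MARVELD1 and 124.6 for empty vector, within 1% for 99.7% and 99.6% of probes. How the divisors were set is not stated there.

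Control spots and outlier spots (223 with MARVELD1, 116 with empty vector) were dropped. Saturation affected 0 spots. The log2 processed intensity minus the array's 75th percentile (703.3 with MARVELD1, 768.1 with empty vector) was taken as a mean over repeated spots. A probe counted as detected if most of its spots on 1 array or both were well above background, and each gene was read by its brightest detected probe. Brightest means the highest mean log2 value over both arrays, so a probe bright on 1 array only can be chosen. Of 41084 probes, 24794 were named by accession, 6036 by symbol, 1807 by an older name and 8447 not, through a RefSeq table of GRCm38.p6. Probe positions are those of the files (mm9), with the strand read from their order. Counting genes past 2-fold was tested on simulated data. There every probe of a changed gene moved alike, with the same noise at all intensities. Disagreement between probes of a gene was not covered. The alternatives tried were normexp, loess and quantile normalization (limma 3.58.1, R 4.3.3), the median of each array as its scale, the authors' deposited table, other filters, other probe rules and other limits of size.

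The members and lists were chosen with earlier results of these data known. The named genes are the 8 members, Marveld1, every gene of the enzyme list and of the SREBP processing list, and from the other lists the highest, the lowest and any past 2-fold. Some genes that this rule selects are not reported here, though they count in the totals of their lists.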

Additional observations from a re-analysis of the deposited data

How the results depend on the processing

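The count of the 8 genes at least 2-fold lower with MARVELD1 was 1 under every alternative run, including limits of 1.5-fold and 3-fold, and the count at least 2-fold higher was 0 under each except the 1.5-fold limit, where it was 1 (Lss). In each run the gene counted as lower was Insig1, read by its 3′ probe or by the mean of its probes. No run read Insig1 by its other probe alone, which gave 0.04 at the main scaling. The Insig1 3′ probe gave -3.33 with normexp background correction. The median of the 8 relative to all genes lay between -0.51 and -0.26. Over all genes the split of higher and lower calls moved with the scaling: 891 and 584 with the 75th percentile, 653 and 723 by the median of each array, 665 and 712 by quantiles, 601 and 765 after loess, 304 and 425 with normexp and 479 and 617 in the authors' deposited table. The cause was not tested. No paired analysis was possible because each group has 1 array. The number of arrays limits the precision, and dim probes of Hmgcs1 carry bounds only.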

Other observations

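The lipid lists outside the sterol pathway stayed inside the 2-fold limits by their brightest probes. Of 14 genes of fatty acid synthesis controlled by SREBP1, all detected, 0 were at least 2-fold higher and 0 lower, and the median was 0.19, as for all genes. Relative to all genes it lay between -0.14 and 0.12 over 10 settings. Elovl6, a fatty acid elongase, was highest, at 13649.3 with MARVELD1 and 8388.9 with empty vector, a difference of 0.83. Lpin1, a phosphatidate phosphatase, was lowest, at -0.81, with its other probes at -0.21, -0.93 and -1.27. Of the genes that use isoprenoids made by the pathway, 9 of 10 were detected, with a median of 0.30. Of these 9, 6 lay above the median of all genes, and 5 to 8 did over the settings tried. Pdss1, which makes the ubiquinone side chain, was highest, at 3920.2 with MARVELD1 and 2161.6 with empty vector, a difference of 0.99. Fntb, the farnesyltransferase subunit gene, was lowest at -0.33, while its other probe gave 0.79.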
